A study of Mus musculus with 2 samples.

Results

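The enzymes examined here join a small polar group to drugs, bile pigments, steroids and oxidized lipids, the second phase of their removal by the liver. Members were taken by the gene names of the array design, as every probe, controls excepted, named for a glutathione transferase (Gsta, Gstk, Gstm, Gsto, Gstp, Gstt, Gstz or Mgst), a glucuronosyltransferase (Ugt1, Ugt2 or Ugt3) or a sulfotransferase (Sult). This gave 46 of the 27962 gene names on the array, read by 62 probes in 71 spots: 22 glutathione transferases, 13 glucuronosyltransferases and 11 sulfotransferases. The samples were livers of male C57BL/6 mice lacking apolipoprotein E (apoE-KO), which received either normal chow or the high-Chol diet (that chow with 1.25% Chol) for 1 week from 10 weeks of age. RNA of 3 independent experiments per diet was hybridized to one-colour Agilent arrays of 60-base probes. Both diets were given to apoE-KO mice alone, so the comparison carries no wild-type liver, and how many mice stand behind an array is not given in the sources used here. If arrays of a diet shared animals, p-values would measure only the spread between these arrays.

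Glutathione transferases add the tripeptide glutathione to electrophiles, and some of them also reduce lipid hydroperoxides. Glucuronosyltransferases of the endoplasmic reticulum transfer glucuronic acid from UDP-glucuronic acid to bilirubin, steroids, bile acids and phenols. Sulfotransferases of the cytosol transfer sulfate from its activated form, PAPS (3′-phosphoadenosine 5′-phosphosulfate), to phenols, catechols, steroids and bile acids. Hepatocytes carry most of this capacity, and nuclear receptors for foreign compounds and bile acids, the aryl hydrocarbon receptor and the oxidative stress sensor Nfe2l2 are known to control many of the genes.

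All values below are log2 signals relative to the 75th percentile of the array, and a difference is the mean on the high-Chol diet minus that on normal chow. The normal chow arrays lay at positions 1, 2 and 3 of slide 1 and 1 high-Chol array at position 4 of that slide, whereas the other two high-Chol arrays lay at positions 2 and 3 of a second slide. Values are given in this order. With slide as a block, the difference rests on the high-Chol array of slide 1 against normal chow. Before scaling, the 75th percentile of the signal was 271 to 374 on slide 1 and 762 to 799 on slide 2, and 50.5 to 67.2% of spots were well above background. Of 71 member spots, 0 to 2 per array were marked as outliers and left out, and none was saturated. Precision is limited by the number of arrays: with 3 against 3, the smallest p of an exact permutation test is 0.1.

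A gene was tested when any of its probes stood well above background on each array of 1 diet or both, and the brightest such probe was used. This held for 44 of the 46 members. Sult2b1, which sulfates Chol and other sterols, was well above background on the 2 high-Chol arrays of slide 2 alone, and Sult3a1 on 1 high-Chol array. The tested members comprised all 22 glutathione transferases, all 13 glucuronosyltransferases and 9 sulfotransferases, and 39 of the 44 were well above background on all 6 arrays.

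After 1 week of the high-Chol diet, no conjugating enzyme passed limma's test at an adjusted p under 0.05: 0 of 44 were called higher, where 2.69% of all 16730 genes were, and 0 lower, where 0.227% were. The lowest adjusted p of a member was 0.0907, for Gsta2. At an unadjusted p under 0.05, limma gave 5 members higher (11.4% of them, 12.3% of all genes) and 8 lower (18.2%, against 8.83% of all genes). The methods' t-test gave 3 members higher (8.38% of all genes) and 7 lower (8.29% of all genes) at that unadjusted threshold. After Benjamini-Hochberg adjustment it called 0.0239% of all genes higher and 0.00598% lower, so that its count of 0 members holds little information. Leaving out the slide 1 array of the high-Chol diet gave 4 of 45 members called higher by limma, below the 17.7% of all genes that this fit called, and 0 lower, where it called 4.43%. Differences above 1.5-fold were seen for 4 members upward (15.4% of all genes) and 3 downward (5.84% of all genes). Of the 42 members with a value on all 6 arrays, 5 had every high-Chol array above every normal chow array (11.8% of all genes) and 8 had every one below (14.0% of all genes). Mgst2 and Sult2a2 passed the filter only through the high-Chol diet. Both stand in the upward counts at limma's unadjusted p, above 1.5-fold and without overlap, and add no support there. The members were not steadier or noisier by much than other genes: their median SD was 0.24 within normal chow and 0.26 within the high-Chol diet, against 0.20 and 0.25 over all genes tested. Negative differences made up 29 of the 44 on this scale (52.2% of all genes) and 20 after normexp background correction. The median of all genes was -0.02 on this scale and -0.11 after that correction.

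**Figure D1:**
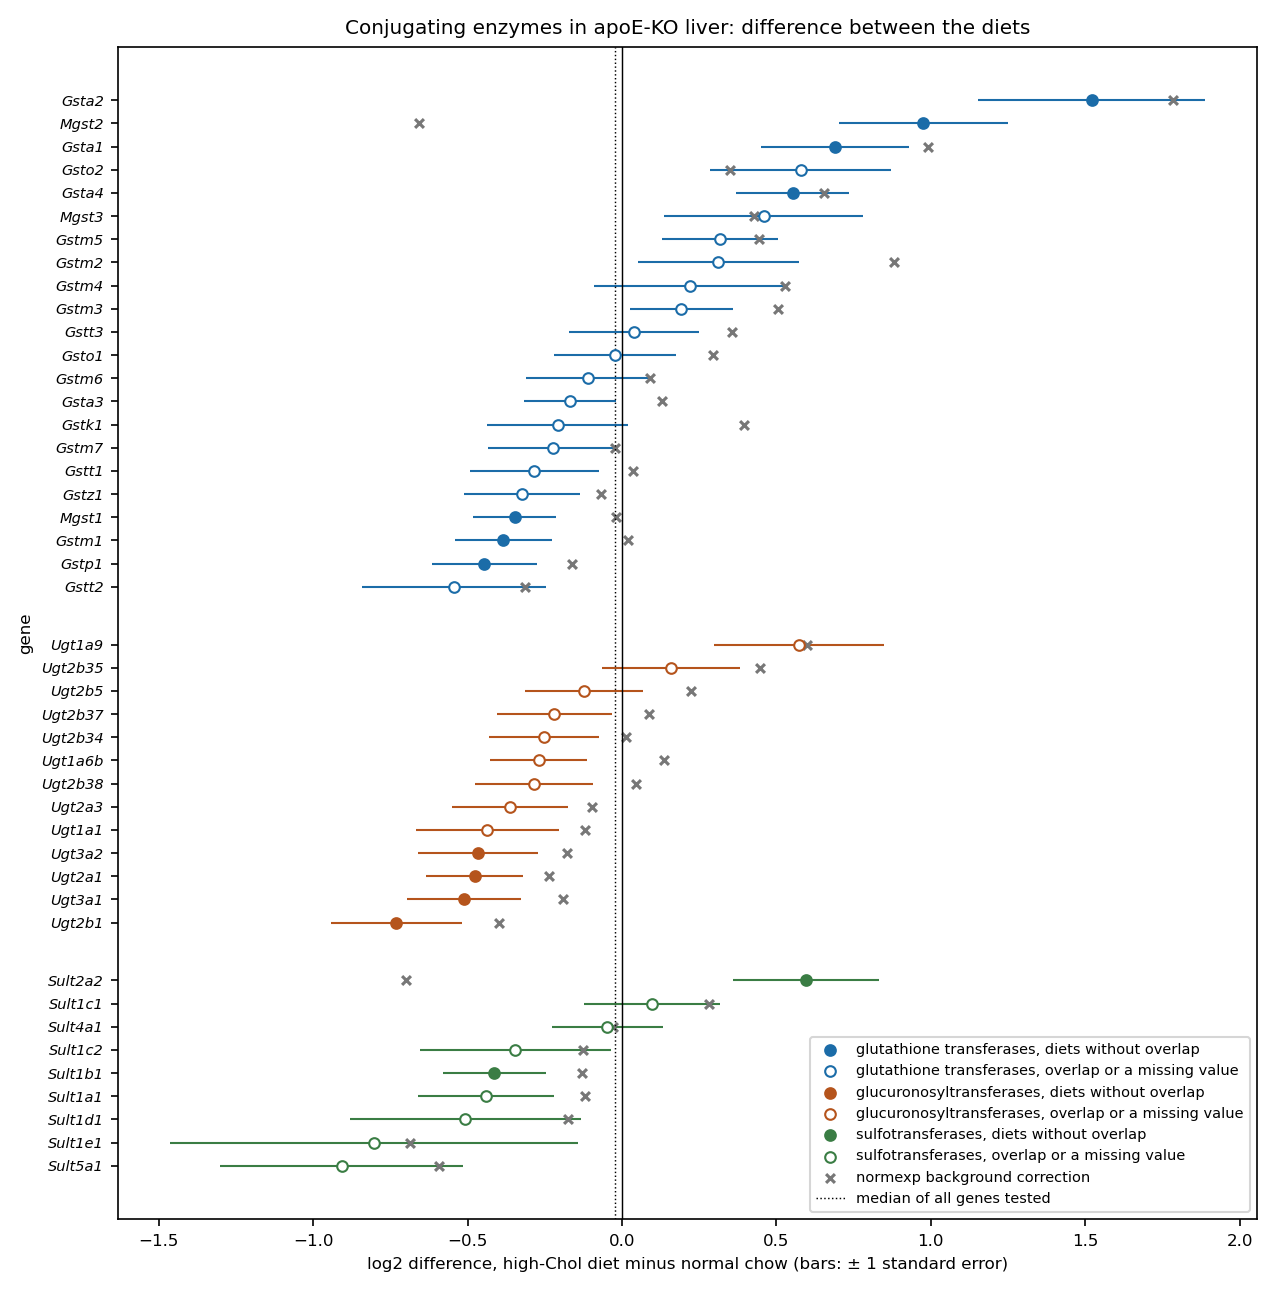
Log2 difference of each of the 44 tested members between the high-Chol diet and normal chow, with its standard error from limma; filled symbols are members whose diets did not overlap, and grey crosses are the differences after normexp background correction. Gsta2 lies farthest to the right at 1.52, 11 of 13 glucuronosyltransferases lie left of 0 (6 of 13 by the crosses), and the crosses of Mgst2 and Sult2a2 lie on the other side of 0 from their symbols.

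Among the soluble glutathione transferases, the largest upward differences were those of the alpha enzymes Gsta2 and Gsta1, followed by the omega enzyme Gsto2 (0.58). Gsta2, an alpha enzyme known to be induced by antioxidants and aryl hydrocarbons, measured 3.20, 4.08 and 4.57 under normal chow and 5.11, 5.85 and 5.45 under high-Chol feeding. Every high-Chol array was above the normal chow arrays, which themselves spread over more than the distance between the diets' nearest arrays. The difference was 1.52 (standard error 0.37, 2.87-fold, n = 3 per diet, adjusted p = 0.0907 by limma), 1.16 with slide as a block, and 1.15 to 1.83 when any array was left out. It passed the threshold when the slide 1 array of the high-Chol diet was left out (1.702, adjusted p = 0.0341 by limma), a fit in which slide and diet cannot be told apart.

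Gsta1, the closest relative of Gsta2, measured 5.31, 5.92 and 6.14 under normal chow and 6.31, 6.65 and 6.47 under high-Chol feeding, a difference of 0.69 (standard error 0.24, adjusted p = 0.183 by limma). Gsta4, which is known for its activity toward 4-hydroxynonenal, an aldehyde of lipid peroxidation, measured 1.27, 1.72 and 1.74 under normal chow and 2.05, 2.27 and 2.07 under high-Chol feeding. Its difference was 0.55 (standard error 0.18, adjusted p = 0.169 by limma). For both genes the diets did not overlap and the normal chow array at position 1 was the lowest. The slide block gave 0.52 and 0.47, scaling to the median of each array gave 0.45 and 0.32, and neither passed the test. For Gsta1, leaving out that normal chow array gave 0.45. Gsta3, the remaining alpha enzyme, overlapped between the diets, at 8.55, 8.69 and 8.56 under normal chow and 8.29, 8.45 and 8.56 under high-Chol feeding, and its difference of -0.17 turned to 0.13 after normexp background correction and 0.03 after quantile normalization. The difference of Gsta2 exceeded that of Gsta3 by 1.69, an amount that a constant shift of each array, such as scaling to its median, leaves as it is. The differences of Gsta1, Gsta2 and Gsta4 were positive under every scaling and background setting tried.

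The probes of Gsta1 and Gsta2 are shown because part of each reads the same stretch of coding sequence, so that RNA of either gene might reach both. Capitals mark the 28 bases that the probes share, 27 of them identical. Counted from 1 at the 5′ end of the Gsta1 probe, the one difference is T40A (Gsta1 base, position, Gsta2 base). Among all member probes of different genes this was the only pair with a near match of 25 bases or more.
Gsta1 probe: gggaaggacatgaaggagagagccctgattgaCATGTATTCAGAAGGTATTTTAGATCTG
Gsta2 probe: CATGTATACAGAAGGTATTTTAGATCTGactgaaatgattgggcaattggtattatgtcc
The Gsta2 probe lies at chr9:78408171-78408230 on the minus strand of mm7, the build of the array annotation, which gives no position for the Gsta1 probe. Their differences may therefore not be independent of each other. The Gsta4 probe has no such match to them; its bases span 1106 bases of the genome at chr9:78241323-78242428 on the plus strand (mm7), which places it across an intron.
Gsta4 probe: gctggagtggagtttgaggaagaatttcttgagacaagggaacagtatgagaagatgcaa

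The promoters of Gsta1 and Gsta2, a window of 300 bases around the start, are shown because both genes had positive differences. They come from RefSeq on GRCm38.p6, at chr9:78230419-78230718 on the plus strand and chr9:78347096-78347395 on the minus strand. In a global alignment 232 of 289 aligned bases were identical. Capitals mark the core GCGTG of the site to which the aryl hydrocarbon receptor and its partner bind.
Gsta1 promoter: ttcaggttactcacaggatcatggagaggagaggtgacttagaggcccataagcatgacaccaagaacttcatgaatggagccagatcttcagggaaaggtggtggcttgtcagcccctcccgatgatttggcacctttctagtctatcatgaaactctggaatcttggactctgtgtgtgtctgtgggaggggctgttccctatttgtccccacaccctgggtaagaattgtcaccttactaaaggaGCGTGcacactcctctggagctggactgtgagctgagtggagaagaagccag
Gsta2 promoter: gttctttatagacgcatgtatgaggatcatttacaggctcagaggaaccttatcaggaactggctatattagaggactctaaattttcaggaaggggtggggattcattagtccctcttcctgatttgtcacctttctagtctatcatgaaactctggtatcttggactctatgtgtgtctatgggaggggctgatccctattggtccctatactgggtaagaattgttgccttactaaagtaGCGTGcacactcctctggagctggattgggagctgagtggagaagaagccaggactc
This core, searched on both strands, stood in 32.4% of all 32851 promoters and in those of 9 of the 39 members with a promoter in the table. The core of the antioxidant response element, TGACNNNGC on both strands, stood in 12.4% of all promoters and in those of Gsta3, Gstm5 and Mgst1, and in neither promoter above. A letter match in this window is a description and does not show binding.

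The mu class, which also holds soluble and abundant liver enzymes, had 7 tested members, 4 with a positive and 3 with a negative difference, from -0.39 to 0.32. Only for Gstm1 did the diets not overlap. Its brightest probe measured 9.22, 9.47 and 9.34 under normal chow and 9.12, 8.82 and 8.94 under high-Chol feeding, a difference of -0.39 (standard error 0.16, adjusted p = 0.225 by limma). Its second probe went the other way, at 5.72, 6.09 and 6.25 under normal chow and 6.67, 6.71 and 6.13 under high-Chol feeding, with a difference of 0.48 and overlapping diets. Both probes lie on the minus strand of chromosome 3, at chr3:107830550-107830609 and chr3:107830934-107830993 (mm7). The brightest probe itself turned to 0.02 with the normexp background, so Gstm1 has no settled direction here. Gstm2, Gstm3, Gstm4 and Gstm5 had positive differences of 0.19 to 0.32 and Gstm6 and Gstm7 negative ones of -0.11 and -0.22, all with overlapping diets. Gstm2 lacked a value on 1 high-Chol array.

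Gstp1, the single pi class enzyme measured and one known to be abundant in the liver of male mice, was lower on the high-Chol diet without overlap. It measured 9.40, 9.38 and 9.01 under normal chow and 8.92, 8.82 and 8.70 under high-Chol feeding, a difference of -0.45 (standard error 0.17, adjusted p = 0.205 by limma) that was -0.34 with slide as a block, -0.16 after normexp background correction and -0.12 after quantile normalization. A second probe gave -0.37, with overlapping diets. The theta class, which accepts dihalogenated compounds, gave -0.54 for Gstt2, -0.28 for Gstt1 and 0.04 for Gstt3. With slide as a block Gstt2 was -0.16 and Gstt1 turned to 0.06. After normexp background correction they were -0.32 and 0.03. Gstz1, which is also the maleylacetoacetate isomerase of tyrosine breakdown, gave -0.32. The mitochondrial and peroxisomal Gstk1 gave -0.21 from a single high-Chol array that had a value, and this turned to 0.40 after normexp background correction. Of the omega enzymes, which reduce dehydroascorbate and arsenic compounds, Gsto1 gave -0.02 and Gsto2 0.58. Apart from Gstk1, the arrays of the diets overlapped for each of these theta, zeta and omega enzymes, and none passed the test.

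The 3 membrane-bound enzymes went different ways. Mgst1, which lies in the endoplasmic reticulum and the outer mitochondrial membrane, had the tightest replicates of the named members, at 8.97, 9.05 and 9.07 under normal chow and 8.71, 8.71 and 8.63 under high-Chol feeding. Its difference of -0.35 (standard error 0.14, adjusted p = 0.211 by limma) was -0.32 with slide as a block but only -0.02 with the normexp background, and its second probe gave -0.24. Mgst2, which can make leukotriene C4, was not well above background on any normal chow array (-4.48, -4.62 and -4.82) and was so on each high-Chol array (-4.12, -3.09 and -3.79). Its signal was higher under high-Chol feeding, at least 1.85-fold (adjusted p = 0.125 by limma), counting each normal chow array at the higher of its own value and the lowest signal well above background on it. The fitted log2 difference was 0.98 with all arrays, 0.53 in the slide-blocked fit and as low as 0.69 with single arrays left out, so both of the latter are smaller changes than that bound. With the normexp background it was -0.66, so this direction depends on the background correction. Mgst2 entered the test only through the diet on which it was detected, so its p adds no support, whether with all arrays or with the slide 1 array of the high-Chol diet left out (1.20, adjusted p = 0.0214 by limma). Mgst3 gave 0.46 with overlapping diets, 0.22 with slide as a block, as little as 0.11 with single arrays left out and 0.12 on another probe well above background.

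**Figure D2:**
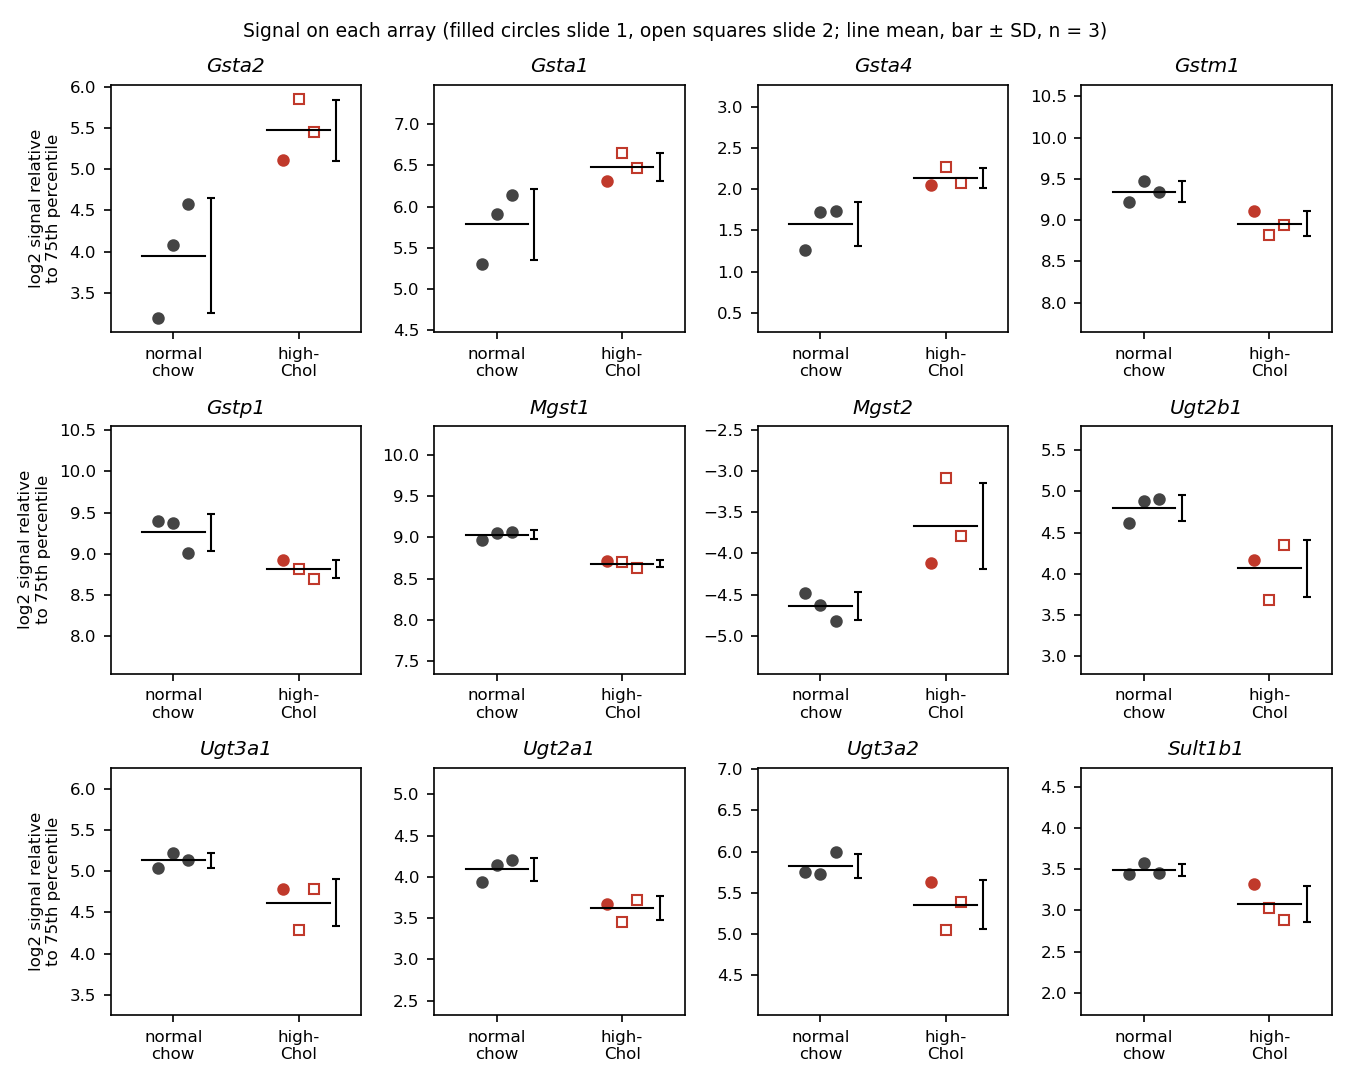
Log2 signal of 12 members on each array, relative to the 75th percentile of the array; grey circles are normal chow, red symbols the high-Chol diet, filled circles slide 1 and open squares slide 2, with the mean and SD of 3 arrays. All panels span the same log2 range, and the step of 1.52 for Gsta2 is the largest, beside a normal chow spread of 0.70 (SD).

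Glucuronosyltransferases mostly had negative differences on this scale, though not after normexp background correction. Of 13 genes, all well above background on all 6 arrays, 11 had a negative difference (52.2% of all genes). Without overlap, 4 were lower (14.0% of all genes) and 0 were higher (11.8% of all genes). The median difference was -0.29 (all genes -0.02), which became 0.01 with the normexp background (all genes -0.11). That setting also moved the median of the glutathione transferases from 0.01 to 0.32 and that of the hepatocyte markers from -0.38 to -0.09. The move was thus not particular to this family. None passed limma's test. Ugt2b1, of the branch that conjugates steroids and bile acids, measured 4.61, 4.88 and 4.90 under normal chow and 4.17, 3.68 and 4.35 under high-Chol feeding. Its difference of -0.73 (standard error 0.21, 1.66-fold, adjusted p = 0.133 by limma) was -0.63 with slide as a block and -0.40 with the normexp background, so it kept its sign without passing the test.

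The other three without overlap were Ugt3a1, Ugt2a1 and Ugt3a2. Ugt3a1, whose family uses sugars other than glucuronic acid, measured 5.04, 5.22 and 5.14 under normal chow and 4.79, 4.29 and 4.78 under high-Chol feeding, a difference of -0.51 (standard error 0.18, adjusted p = 0.192 by limma). Ugt3a2 measured 5.76, 5.72 and 5.99 under normal chow and 5.64, 5.05 and 5.39 under high-Chol feeding, a difference of -0.47 (standard error 0.19, adjusted p = 0.232 by limma). In both, the lowest value came from the second position of slide 2. The slide block gave -0.34 for Ugt3a1 and -0.19 for Ugt3a2, for which the slide 1 array of the high-Chol diet lay near those of normal chow. Ugt2a1, best known from the olfactory epithelium, measured 3.94, 4.15 and 4.201 under normal chow and 3.68, 3.45 and 3.72 under high-Chol feeding, a difference of -0.48 (standard error 0.16, adjusted p = 0.169 by limma). Its second probe gave -0.29 and the second probe of Ugt3a2 gave -0.36, each with overlapping diets. After normexp background correction the differences were nearer to 0, at -0.19 for Ugt3a1, -0.18 for Ugt3a2 and -0.24 for Ugt2a1.

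The Ugt1 genes share their last exons and differ in the first, which sets the substrate. Ugt1a1, the enzyme of bilirubin glucuronidation, measured 3.35, 3.36 and 3.94 under normal chow and 3.41, 2.87 and 3.06 under high-Chol feeding. Its difference of -0.44 (standard error 0.23), with overlap, was -0.14 with slide as a block and -0.12 after normexp background correction. Ugt1a9 had the opposite sign, at 0.81, 0.48 and 1.44 under normal chow and 1.79, 1.39 and 1.26 under high-Chol feeding, a difference of 0.57 (standard error 0.28, adjusted p = 0.276 by limma) with overlap. The brightest probe named Ugt1a6b, a phenol-conjugating form, gave -0.27, but 0.14 after normexp background correction and -0.002 after quantile normalization. On the plus strand of mm7 it lies at chr1:88122519-88122578, beyond the Ugt1a1 probe at chr1:88115927-88115986, while the second Ugt1a6b probe, with a difference of -0.35, lies before it at chr1:88010877-88010936. A probe beyond the first exon of Ugt1a1 could read RNA of any Ugt1 first exon, so the value of the brightest probe may not belong to Ugt1a6b alone. Within the Ugt2 branch, the remaining 6 genes had overlapping diets and differences from -0.36 for Ugt2a3 to 0.16 for Ugt2b35. Genes of the Ugt2b group are close copies, and signal of 1 on the probe of another was not tested beyond the comparison of probe sequences.

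Sulfotransferases had a median difference of -0.41 (all genes -0.02) over 9 tested genes, 7 of them negative (52.2% of all genes). This median was negative under every setting tried. It was nearest to 0 at -0.13 with the normexp background, where that of all genes was -0.11. Only Sult1b1, which sulfates thyroid hormones and small phenols, was lower without overlap, as were 14.0% of all genes. It measured 3.44, 3.58 and 3.46 under normal chow and 3.32, 3.03 and 2.89 under high-Chol feeding. Its difference was -0.41 (standard error 0.17, adjusted p = 0.223 by limma), -0.17 with slide as a block, -0.13 after normexp background correction and -0.12 on its second probe, where the diets overlapped. Sult1a1, the main phenol sulfotransferase, gave -0.44 and Sult1d1, a catecholamine sulfotransferase, gave -0.51, both with overlap. Sult1a1 was -0.25 with slide as a block and -0.12 after normexp background correction. Sult1d1 was -0.18 after that correction and -0.91 to -0.30 with single arrays left out.

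The largest negative values of this family came with wide replicates. Sult5a1 measured 1.64, 0.94 and 0.30 under normal chow and 0.66, -0.35 and -0.15 under high-Chol feeding, a difference of -0.91 (standard error 0.39, adjusted p = 0.243 by limma) that was -0.30 with slide as a block. Sult1e1, the estrogen sulfotransferase, measured -4.14, -2.23 and -1.55 under normal chow and -3.39, -4.13 and -2.82 under high-Chol feeding, a difference of -0.80 with a standard error of 0.66. Both overlapped, and for Sult1e1 the normal chow arrays alone spread more widely than the diets differed. Sult1e1 was well above background on 2 normal chow arrays and 3 high-Chol arrays. Its difference was -1.55 to -0.26 with single arrays left out. Sult2a2, a hydroxysteroid and bile acid sulfotransferase that is much higher in female than in male mouse liver, was well above background on 1 normal chow array and on 3 high-Chol arrays. It measured -4.67, -4.54 and -4.74 under normal chow and -4.53, -3.67 and -3.97 under high-Chol feeding, a fitted difference of 0.60 (adjusted p = 0.220 by limma) against 2 arrays not well above background, which fell to 0.12 in the slide-blocked fit and turned to -0.70 after normexp background correction. The nearest arrays of the diets, at -4.536 and -4.534, were all but equal. It was called, at 0.83, when the slide 1 array of the high-Chol diet was left out, and it too passed the filter only through that diet. Sult1c1, Sult1c2 and the neuronal Sult4a1 gave 0.10, -0.35 and -0.05 with overlap.

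Family medians depended on the processing. The median difference of the glutathione transferases was 0.01 with the 75th percentile, that of all genes -0.02. Scaling to the median of each array, which moves the difference of every gene with values on all 6 arrays by the same amount, moved the median of all genes to -0.26, and the deposited values gave -0.28. Relative to all genes, the glutathione transferases lay at 0.03 with the 75th percentile, 0.07 after scaling to the median, 0.23 after quantile normalization and 0.43 after the normexp correction. The glucuronosyltransferases lay at -0.26, -0.27, -0.14 and 0.12 under the same settings, and the sulfotransferases at -0.39, -0.39, -0.25 and -0.02. The glutathione transferases had the highest median of the 3 families in each of these 4 settings. Whether the families differ was not tested, since genes of a family are not replicates of the diet.

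**Figure D3:**
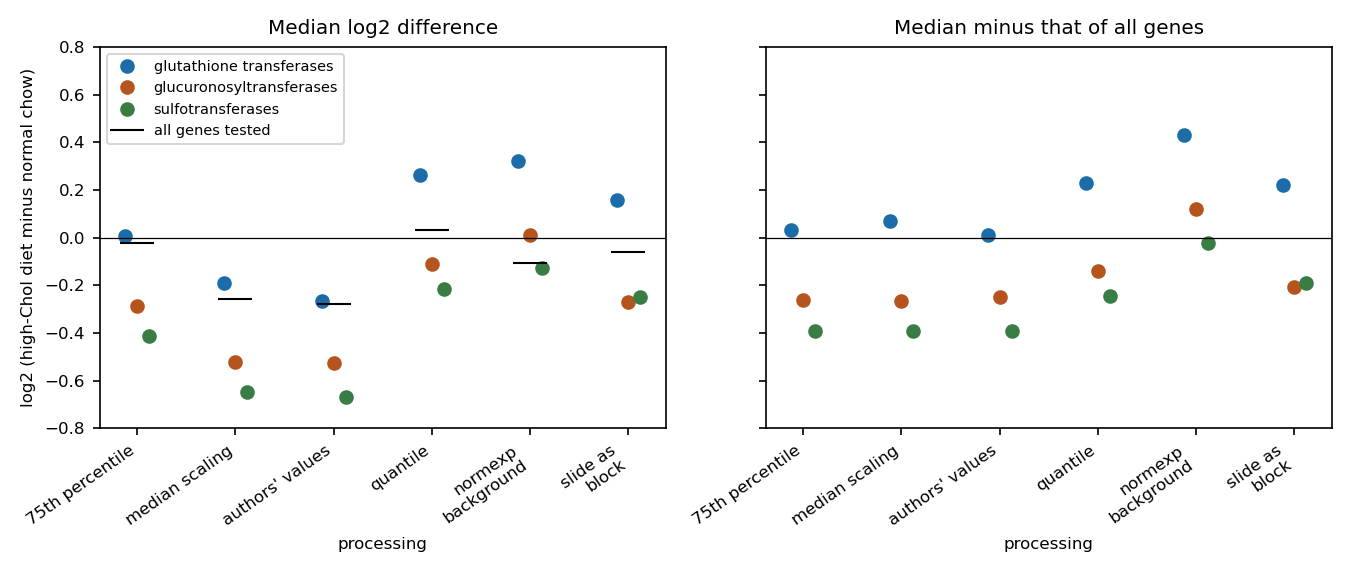
Median log2 difference of each family and of all genes tested (left), and the median of each family minus that of all genes (right), under 6 ways of processing. The glutathione transferases have the highest median in all 6, and the glucuronosyltransferases cross 0 with the normexp background alone.

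Genes that feed, remove or control the conjugates were taken from lists. Of 4 tested genes of glutathione supply, 3 had positive differences. Gclc, the catalytic subunit of the rate-limiting enzyme of glutathione synthesis, gave 0.42 (standard error 0.34, and 0.155 or 0.815 when either high-Chol array of slide 2 was left out) with overlap. The regulatory subunit of that enzyme, Gclm, gave 0.31 (standard error 0.15) without overlap, but 0.078 after scaling to the median and 0.072 in the authors' values. Glutathione reductase, Gsr, gave 0.25 without overlap. Glutathione synthetase, Gss, gave -0.29, which turned to 0.026 with slide as a block and 0.060 after normexp background correction. None was called. In the supply of UDP-glucuronic acid, Ugdh, which makes it, gave -0.10 and lacked a value on 1 high-Chol array, Slc35d1, its transporter, gave -0.36 (-0.06 after normexp background correction), and Gusb, the enzyme that removes glucuronic acid, gave 0.59 (adjusted p = 0.118 by limma) without overlap, but 0.21 on its second probe (adjusted p = 0.406 by limma) and 0.36 after scaling to the median. In the supply of PAPS, 6 of 8 genes were negative (52.2% of all genes) and 0 were called. Papss2, the main PAPS synthase of liver, measured 0.67, 0.47 and 0.90 under normal chow and 0.70, -0.46 and -0.90 under high-Chol feeding. Its difference of -0.90 came from the arrays of slide 2 and was 0.02 with slide as a block. The sulfate transporter Slc26a1 gave -0.51 without overlap, which was -0.32 without the array at position 2 of slide 2 and -0.20 after normexp background correction. Slc35b3, which carries PAPS into the Golgi, gave -0.26 with overlap, -0.14 without the array at position 3 of slide 2 and -0.02 in the slide-blocked fit.

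Among 14 other conjugating enzymes, limma called 1 higher (2.69% of all genes) and 0 lower (0.227% of all genes). This was Hpgds, named Ptgds2 on the array, the prostaglandin D synthase that is the sigma class glutathione transferase. It was not well above background on any normal chow array (-5.19, -6.91 and -5.47) and was so on all 3 high-Chol arrays (-3.49, -2.65 and -2.85), at least 4.31-fold higher (adjusted p = 0.0264 by limma). It passed the filter only through the diet on which it was detected, and with no filter its adjusted p was 0.119 by limma. The difference turned to -0.27 with the normexp background, whose offset weighs differently between the slides for signals near background. This call was also lost with slide as a block and when either of the normal chow arrays at positions 2 and 3 or either array of slide 2 was left out (differences of 2.33 to 3.06). The list had 10 negative differences (52.2% of all genes) and a median of -0.19. Glyat, which conjugates acyl groups to glycine, gave -0.61 without overlap, Slc27a5, which activates bile acids for conjugation, -0.49 with overlap, and the nicotinamide methyltransferase Nnmt -0.71 with overlap, none of them called. After normexp background correction these were -0.21, -0.11 and -0.39, and with slide as a block -0.337, -0.195 and -0.914. Nnmt was lower on 2 of the high-Chol arrays (6.31 and 5.94) but not on that at position 3 of slide 2 (7.3, against 7.21 to 7.24 under normal chow), and leaving out either array of slide 2 gave -0.42 or -1.10. Ugt8a, which makes galactosylceramide, gave 1.47 with overlap, was well above background on 1 normal chow array, and turned to -0.59 with the normexp background.

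Of 12 transporters that carry conjugates and their precursors, 9 had negative differences (52.2% of all genes), and 1 was called higher (2.69% of all genes). Abcc1, an exporter of glutathione conjugates, measured -2.70, -2.70 and -2.55 under normal chow and -1.31, -0.95 and -1.54 under high-Chol feeding, a difference of 1.38 (standard error 0.19, adjusted p = 0.0151 by limma). It was 1.34 but no longer called with slide as a block, and 0.10 with the normexp background. Of its other probes, one was called (1.16, adjusted p = 0.0253 by limma) and one was not (0.71, adjusted p = 0.123). The call was also lost when any normal chow array or the array at position 2 of slide 2 was left out (differences of 1.23 to 1.43). Slco1a1, an uptake transporter of the sinusoidal membrane, measured 3.34, 3.54 and 3.49 under normal chow and 2.62, 1.46 and 2.30 under high-Chol feeding, a difference of -1.33 (standard error 0.30, adjusted p = 0.0712 by limma). Abcc2, which exports conjugates into bile, gave -0.60 without overlap, and Abcc4 gave 0.71 with overlap. The slide block gave -0.83 for Slco1a1 and 0.25 for Abcc4.

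Of 13 regulators, 12 had negative differences (52.2% of all genes) and none was called. Ppara, the fatty acid receptor, gave -0.94, the bile acid receptor Nr1h4 -0.81 and the small Maf protein Mafg -0.64, all without overlap, and after normexp background correction these were -0.60, -0.48 and -0.27. Nfe2l2, the oxidative stress sensor, had the one positive difference, 0.52 (standard error 0.18), without overlap, which was 0.25 with slide as a block. Of 8 targets of these sensors, Hmox1 (0.80), Srxn1 (0.55) and Txnrd1 (0.32), which are known to follow Nfe2l2, were higher without overlap, Nqo1 gave 0.40 with overlap, and none was called. Txnrd1 gave 0.11 with slide as a block. The aryl hydrocarbon receptor targets Cyp1a1 and Cyp1a2 gave -0.39 and -0.58, with overlap, and Cyp1a2 gave -0.04 with slide as a block. Of 11 tested clock genes 8 were negative (52.2% of all genes) and 0 called. Dbp, a clock output factor that acts on genes of drug metabolism, measured 6.57, 6.49 and 6.80 under normal chow and 0.86, 0.86 and 5.64 under high-Chol feeding, so the 3 high-Chol arrays were not alike, and leaving out the array at position 3 of slide 2 made it a called gene (-5.76). Arntl, the core clock activator, had the other sign, at -1.12, -1.71 and -3.67 under normal chow and 1.19, 1.17 and -1.51 under high-Chol feeding, a difference of 2.45 with overlap. Per2, a repressor of the clock, gave -1.99 with overlap, and its array at position 3 of slide 2 (-0.34) was also apart from the other two (-3.15 and -2.40). The part of the clock genes in the values of the members was not tested. With the slide 1 array of the high-Chol diet left out, which leaves slide and diet inseparable, limma also called Gusb and Abcc4 higher and Papss2, Glyat, Slc27a5, Slco1a1, Mafg and Cyp1a2 lower. That fit called 17.7% of all genes higher and 4.43% lower.

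**Figure D4:**
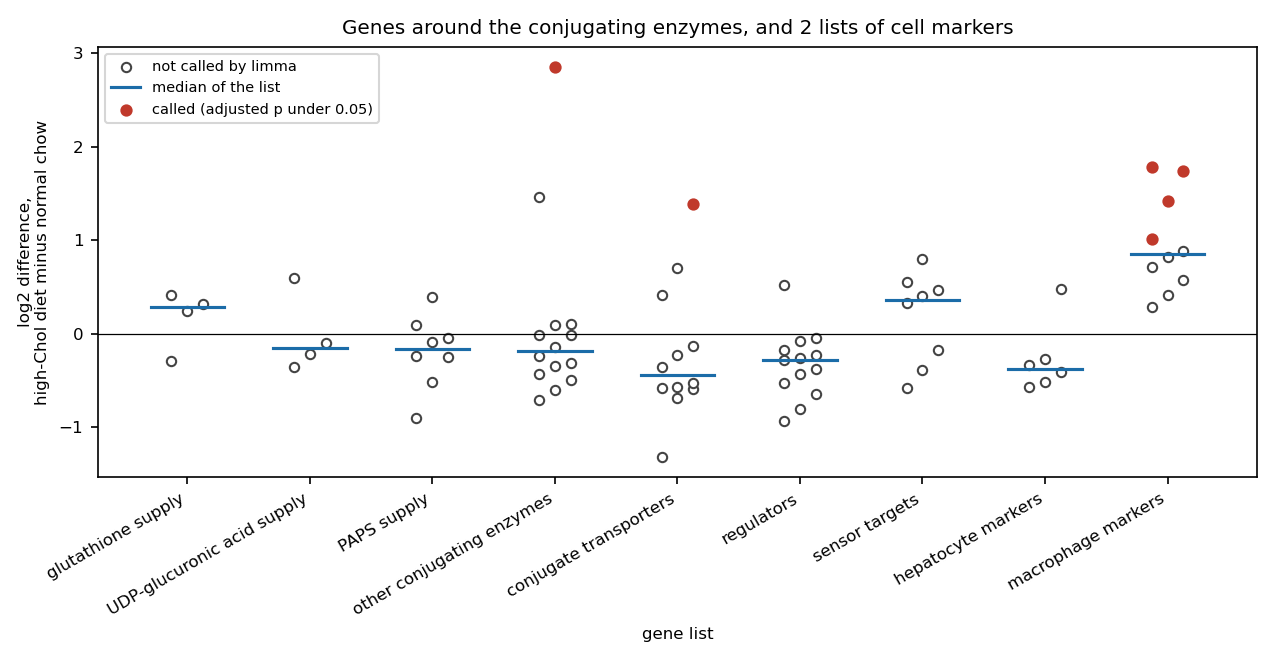
Log2 difference of each tested gene in the 7 lists around conjugation and in the hepatocyte and macrophage marker lists; filled points were called by limma at an adjusted p under 0.05 and blue lines are list medians. Hpgds and Abcc1 (1.38) are the 2 filled points outside the macrophage markers. The point of Hpgds is its fitted value. In this scaling only a bound of at least 4.31-fold can be given for it, and its difference was -0.27 with the normexp background.

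The tissue label was checked against cell markers. All 6 tested hepatocyte markers were well above background on every array, among them Ttr, Apoa1 and Fgb. Of these, 5 had negative differences (median -0.38, -0.09 with the normexp background), and their summed linear signal was 1617 to 1868 times the 75th percentile under normal chow and 1227 to 1453 times under high-Chol feeding. Macrophage markers had the other sign: all 10 had positive differences, 4 were called higher, among them Cd68 (1.74) and Lyz2 (1.78), and the summed signal of the 8 with a value on every array was 162 to 193 under normal chow and 367 to 516 under high-Chol feeding. Of 4 tested neutrophil markers 2 were called higher, S100a8 and S100a9, and the summed signal of the list was 2.01 to 2.32 under normal chow and 10.2 to 16.4 under high-Chol feeding. Of 7 lymphocyte markers 1 was called higher and of 6 stellate cell markers 1, and of the endothelial, cholangiocyte and erythroid markers none was called. Over all genes, 2.69% were called higher. The part of these cell markers in the values of the conjugating enzymes was not tested, and in whole liver fewer cells of a type and less RNA per cell cannot be told apart.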

How the data were processed

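The authors deposited the scanner output of 6 arrays, spot intensity values background-subtracted by Agilent Feature Extraction (version 9.1 in the submitters' processing notes; 9.5 on slide 1 and 9.1 on slide 2 per the file headers), not normalized between arrays. The authors also deposited log2 values, 1 per probe and diet, normalized by settings not given in the sources used here.

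Here, the log2 intensity minus the 75th percentile of each array was used. Control and outlier spots were left out, spots of a probe were averaged, and each gene was read by its brightest probe that passed the filter. Diet groups were tested by limma (3.58.1, in R 4.3.3) over all 16730 genes passing the filter, with Benjamini-Hochberg adjustment and a threshold of 0.05. The step was tested on simulated data. Accessions of 45 of 46 members matched RefSeq gene names; 39 had a promoter sequence. The array annotation gave a position (mm7) for 59 of 62 probes.

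Members and lists were chosen with earlier results of these data known. Values on every array are given for members, per family and direction, with the 4 largest differences without overlap, for those detected on 1 diet alone and for those whose probes disagree. List genes were named, some by their difference alone, if called or among the 3 largest differences of a list among genes well above background on all 6 arrays. Others were named after their values were seen. Alternatives were the normexp background (offset 50), median and quantile scaling, no filter or one for all 6 arrays, the mean of probes or each probe, slide as a block, omission of each array, the methods' t-test and the authors' values. Software was pandas 2.3.3, numpy 2.4.6 and matplotlib 3.10.9 in Python 3.11.15.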

Additional observations from a re-analysis of the deposited data

How the results depend on the processing

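Without the high-Chol array of slide 1, limma called 4 of 45 members higher (Gsta2, Mgst2, Sult2a2 and Sult2b1, of which Gsta2 alone was well above background on all normal chow arrays), where it called 17.7% of all genes, so the count called higher ranged from 0 to 4 when single arrays were left out and the count called lower stayed at 0. The other alternatives called 0 members, but some could call few genes at all: of 16730, the slide block called 11 and the normexp correction 0, and limma called 26 of 27961 with no filter. The methods' t-test without adjustment gave 3 higher and 7 lower. With slide as a block, 0 members passed even an unadjusted p under 0.05 in limma. The median of the glucuronosyltransferases was 0.013 with the normexp background, -0.52 with median scaling, -0.11 with quantile normalization, -0.53 in the authors' values, and -0.43 to -0.22 with single arrays left out. That of the sulfotransferases was -0.13 with the normexp background, -0.65 with median scaling, -0.67 in the authors' values and -0.57 to -0.26 with single arrays left out, and that of the glutathione transferases, whose sign depended on the scaling, was 0.32 after normexp background correction, 0.26 after quantile normalization, -0.19 after median scaling, -0.27 in the authors' values and -0.09 to 0.13 with single arrays left out.

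Of the 44 members, 13 changed sign with the normexp background, 5 with slide as a block, 5 with median scaling and 4 with quantile normalization. The normexp offset of 50 raises scaled signals near background less on the brighter slide 2. For genes near background (Mgst2, Sult2a2, Hpgds and Ugt8a) a sign turned by it therefore cannot decide a direction. Among members and list genes named by the rule, signs turned with the normexp background for Mgst2 (-0.66), Gstm1 (0.019), Gss (0.060), Slc35b3 (0.046) and Hpgds, named Ptgds2 (-0.27). With slide as a block they turned for Gss (0.026) and Papss2 (0.02), and for Gstm1 with the mean of its probes (0.05) and on its second probe (0.48). Of the calls outside the members, Hpgds was lost in 8 alternatives and Abcc1 in 9, one of its other 2 probes (0.71) among them; the cause was not tested. No paired analysis was possible because the labels tie no replicate number to an array.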
